A study of Mus musculus with 9 samples.

Results

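LILRB4+/+ mice that still carry SCG2 are the genotype in which both the receptor allele and the gene for its reported partner are present, and their cells were set here against those of both other genotypes of the series. The 3 LILRB4+/+ libraries (replicates 1 to 3) formed one side, and the 3 WT libraries with the 3 LILRB4+/+ SCG2-/- libraries formed the other, so that all 9 libraries of the series were used. Each library holds poly-A RNA of monocytic myeloid-derived suppressor cells (M-MDSCs) sorted from tumours of mice bearing MC38, a mouse colon carcinoma line. The tumour is shared by all 3 groups, and the LILRB4+/+ allele is shared by the LILRB4+/+ and the LILRB4+/+ SCG2-/- group. The make-up and promoter of the LILRB4+/+ allele, the cells in which SCG2 is missing, the sorting gate, the age of the mice and the number of mice behind a library are not in the labels. The p-values therefore measure a spread between libraries that may be technical. Fewer cells of a type and less RNA per cell cannot be told apart in such bulk samples.

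LILRB4 is an inhibitory receptor of the immunoglobulin superfamily found mainly on monocytes, macrophages and dendritic cells, and its tail carries ITIM motifs that recruit phosphatases after phosphorylation. SCG2, secretogranin II, is a granin protein of secretory granules whose gene is best known from neuroendocrine cells, and the series title names it as a partner of LILRB4. M-MDSCs are immature monocytes of tumours that restrain T cells through arginine depletion, prostaglandins, reactive species and cytokines. The title also names IL-6, a cytokine that signals through gp130 to the transcription factor STAT3, and the comparison addresses which transcripts differ where LILRB4+/+ and SCG2 are together.

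Counts per library ran from 14501163 to 27219202, and levels are given as CPM, counts scaled to the size of the library, in the order of replicates 1, 2 and 3. Scg2 itself had 1 recovered read in WT replicate 1, 1 in LILRB4+/+ replicate 1 and 0 elsewhere, so it does not check the labels at this depth. The monocyte genes Ly6c2, Itgam and Ccr2 stood at 78.0 to 286, 99.6 to 376 and 87.5 to 315 CPM. Of 18 neutrophil markers, which summed to 293 to 477 CPM in LILRB4+/+ libraries and 182 to 277 in the others, Ly6g and Elane were at or below 0.204 CPM while Retnlg, Hdc, Csf3r and Il1r2 were present in every library. T and NK cell markers summed to 462 to 2948 CPM in LILRB4+/+ libraries and 433 to 2724 in the 6 others. The deposited count table differed from the counts behind the deposited FPKM values (recovered counts) at 56 of 88893 values, in 47 genes, and 41 of these values lay in LILRB4+/+ replicate 1, all higher in the count table. Many of the differences were round numbers, such as 70000 reads for Il1b and 50000 for Cd14. Some values were exchanged between libraries, as for Ccl9 between LILRB4+/+ replicate 1 and WT replicate 2. Which source is right is not stated. The ratio of LILRB4+/+ to the others was higher with the count table for 45 of the 47 genes, so for them a difference is stated as such only where both sources passed the test. The genes of the count table are protein-coding ones that reach 100 counts in both replicate 1 and replicate 3 of LILRB4+/+, so its make-up depends on the LILRB4+/+ side.

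Genes higher in LILRB4+/+ M-MDSCs included the chemokine genes Cxcl2 and Cxcl3, the cytokine genes Il1a, Tnf and Csf3, the cyclooxygenase gene Ptgs2, the kinase gene Syk and the Siglec gene Cd33, and the lower ones were Nppb, Amotl2 and Ccna2. With edgeR's quasi-likelihood test on 9877 genes and Benjamini-Hochberg adjustment over all of them at 0.05, 94 genes were higher in LILRB4+/+ than in the mean of both other genotypes (0.952% of those tested) and 3 were lower (0.0304%). Their median log2 difference was 0.84, with a range of 0.57 to 2.06, against -0.02 for all genes. Of the 94, 79 were also called with recovered counts of all 15743 genes, where 0.591% were higher and 0.00635% lower, and 91 with recovered counts of the same 9877 genes, where 1.17% were higher. At an unadjusted p under 0.05, 889 genes were higher (9%) and 919 lower (9.3%). All 3 LILRB4+/+ libraries lay above all 6 others for 85 of the 94, and for 4% of all genes tested. The 94 were called on this same contrast, so their separation follows largely from the calling and is a description. These calls sit close to the threshold, since 89 of the 94 had an edgeR adjusted p of 0.03 or more.

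A difference from the mean of 2 genotypes can come from either one, and requiring a difference from both of them in the same gene gave no call with edgeR. When each gene had to differ from WT and from LILRB4+/+ SCG2-/-, judged by the larger of its 2 p-values, 0 genes passed (0% of 9877) and the smallest edgeR adjusted p was 0.294, for Kcnj2. At an unadjusted larger p under 0.05, 327 genes were higher (3.31%) and 274 lower (2.77%), among them 90 of the 94, and DESeq2 called 57 genes in this test. Of the 94, 83 were also called against WT alone, where 1.73% of genes were higher, and 0 against LILRB4+/+ SCG2-/- alone, where 0% passed by edgeR and 610 genes (6.18%) were higher at an unadjusted p under 0.05.

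The number of calls rested on single libraries. Without LILRB4+/+ replicate 1 or without WT replicate 3, 0 genes were higher and 0 lower at the adjusted threshold, while without WT replicate 2 the numbers were 109 and 2. Leaving out LILRB4+/+ replicate 2 or 3 gave 66 or 7 higher genes, leaving out WT replicate 1 gave 10, and leaving out LILRB4+/+ SCG2-/- replicate 1, 2 or 3 gave 11, 26 or 9. With the 6 other libraries taken as 1 group, which puts the difference between their genotypes into the spread, 1 gene was higher, and limma on log2(FPKM + 1) found 2 (0.0161%), whereas DESeq2 found 399 higher and 139 lower. With the summed T and NK cell markers as a covariate, a fit added after seeing the data, 373 were higher and 128 lower. With the summed mitochondrially encoded mRNAs as a covariate, also added afterwards, there were 0 and 0. Those mRNAs summed to 11224 to 19285 CPM in LILRB4+/+ and 4939 to 10455 in the others, without overlap, so this covariate and the genotype cannot be told apart.

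**Figure D1:**
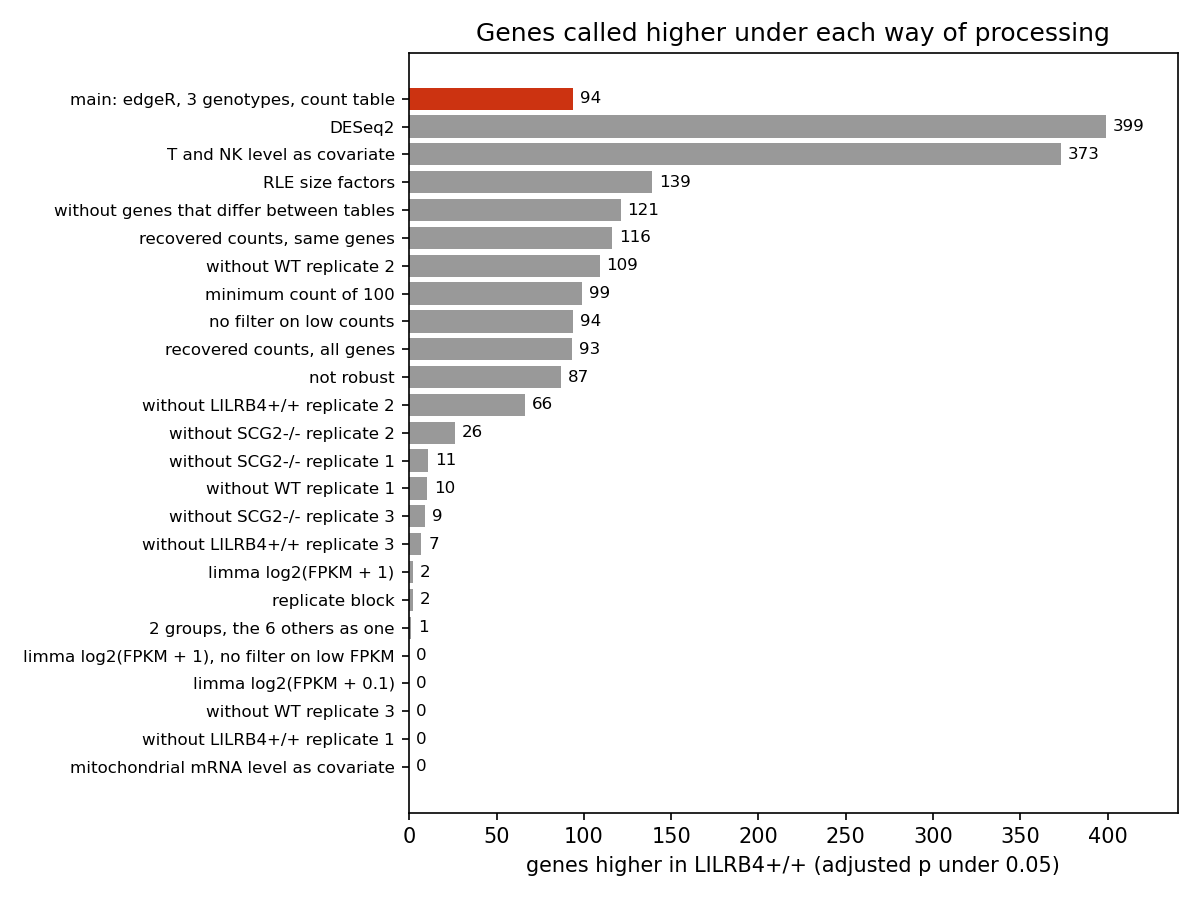
Number of genes higher in LILRB4+/+ libraries (x axis, adjusted p under 0.05) under the main edgeR fit (red, 94) and each other way of processing (grey, named on the y axis). The bars run from 0 to 399, and both a left-out library and the choice of test move them.

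The genes with the smallest p-values include ion channels, a phosphatase and surface receptors. Ankrd33b, an ankyrin repeat gene (chromosome 15, 31291478 to 31367726, GRCm38), stood at 28.7, 19.8 and 21.5 CPM in WT, 87.1, 80.6 and 78.5 in LILRB4+/+ and 49.2, 46.3 and 35.5 in LILRB4+/+ SCG2-/-. All LILRB4+/+ libraries were above all others and the LILRB4+/+ SCG2-/- libraries were above all WT libraries (log2 difference 1.36, SE 0.15, edgeR adjusted p = 0.0145). Kcnj2, which encodes an inward rectifier potassium channel (chromosome 11, 111066164 to 111076821), stood at 11.1, 8.38 and 7.62 CPM in WT, 22, 28.1 and 21.9 in LILRB4+/+ and 10.1, 9.09 and 10.005 in LILRB4+/+ SCG2-/-. Here the ranges of the other genotypes overlapped each other and every LILRB4+/+ library lay above them (log2 difference 1.36, SE 0.16, edgeR adjusted p = 0.0158). Orai2, a pore subunit of store-operated calcium channels, stood at 59.2, 54.5 and 58.5 CPM in WT, 146, 126 and 113 in LILRB4+/+ and 71, 87.2 and 89 in LILRB4+/+ SCG2-/-, again with no overlap (log2 difference 0.90, SE 0.12, edgeR adjusted p = 0.0268). These are the 2 of 17 measured calcium and potassium channel genes that passed, and the median of that list was 0.24, where 0.982% of all genes passed and their median was -0.02.

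Cd33, a myeloid receptor of the sialic acid-binding Siglec family (chromosome 7, 43524216 to 43544428), stood at 48.3, 48 and 36.2 CPM in WT, 101, 109 and 82.6 in LILRB4+/+ and 53.8, 40.6 and 33.5 in LILRB4+/+ SCG2-/-. The WT and LILRB4+/+ SCG2-/- ranges overlapped and every LILRB4+/+ library lay above them (log2 difference 1.17, SE 0.16, edgeR adjusted p = 0.0318). Cd93, a membrane protein of myeloid and endothelial cells, stood at 48, 59.3 and 61 CPM in WT, 143, 138 and 133 in LILRB4+/+ and 47.7, 89.3 and 55.2 in LILRB4+/+ SCG2-/- (log2 difference 1.20, SE 0.18, edgeR adjusted p = 0.0318). Ptpre, a receptor-type tyrosine phosphatase, stood at 57.3, 56.9 and 61 CPM in WT, 118, 117 and 107 in LILRB4+/+ and 70.9, 76.5 and 68.3 in LILRB4+/+ SCG2-/- (log2 difference 0.81, SE 0.10, edgeR adjusted p = 0.0201). Cdk5r1, which encodes an activator of the kinase CDK5, stood at 18.4, 11.9 and 12.8 CPM in WT, 58.9, 40.6 and 64.3 in LILRB4+/+ and 25.6, 32 and 21.1 in LILRB4+/+ SCG2-/-, with LILRB4+/+ SCG2-/- above WT in every library (log2 difference 1.49, SE 0.19, edgeR adjusted p = 0.0232). Sphk1, the kinase that makes sphingosine 1-phosphate, was 1.19 higher on the log2 scale, the exchange factor gene Ralgds 0.80, the ubiquitin ligase gene Rffl 0.95 and Osgin2 0.78, each at an edgeR adjusted p of 0.0318. Mthfsl was 1.03 higher (15.8, 18.5 and 15 CPM in WT, 27.9, 39 and 31 in LILRB4+/+ and 13.9, 17.9 and 15.1 in LILRB4+/+ SCG2-/-), but it is a near copy of Mthfs and reads may be split between them. Of these 12 genes, Ankrd33b, Kcnj2, Ptpre, Orai2 and Cd33 passed the threshold in 7 of the 9 fits that left out a library, and none passed in all 9.

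**Figure D2:**
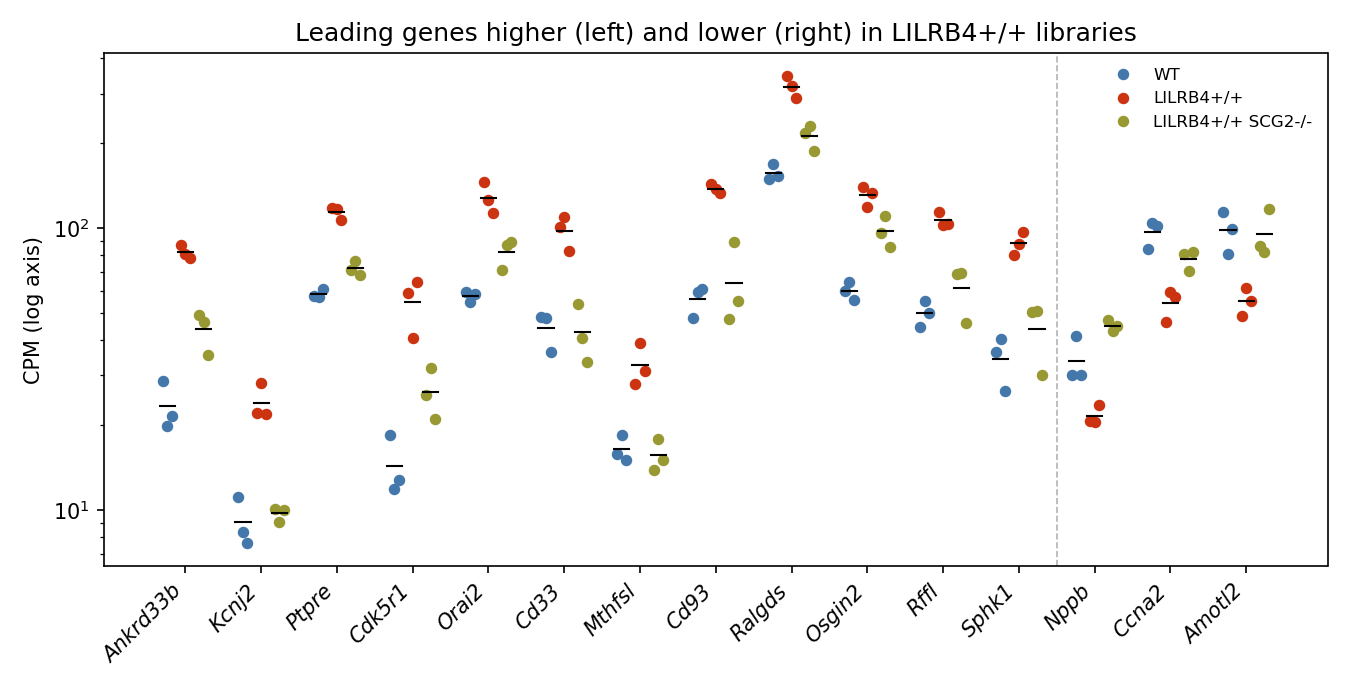
CPM on a log axis of the 12 genes with the smallest p-values on the higher side and the 3 lower genes, with 1 dot per library (blue WT, red LILRB4+/+, olive LILRB4+/+ SCG2-/-) and a bar at each mean. The red dots lie above all others for the 12 genes on the left and below them for the 3 on the right.

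For 76 of the 94 genes the estimated level without SCG2 lay between WT and LILRB4+/+, and no single gene differed from WT after adjustment with edgeR. The contrast of LILRB4+/+ SCG2-/- with WT is orthogonal to the one that chose the genes, although both share the estimate of spread. LILRB4+/+ SCG2-/- stood above WT for 76 of the 94 genes (80.9%), against 50.4% of all genes, and 40 of them had an unadjusted p under 0.05, all above WT, against 8.47% of all genes. With edgeR 0 passed after adjustment over all genes, where 0% of the 9877 were higher, and DESeq2 called 11. The median log2 differences of the 94 were 1.0 for LILRB4+/+ against WT, 0.67 for LILRB4+/+ against LILRB4+/+ SCG2-/- and 0.30 for LILRB4+/+ SCG2-/- against WT. As a share of the log2 rise over WT, the median kept without SCG2 was 30.8%, and it was under 25% for 38 genes, 25 to 50% for 38 and 50% or more for 18. These shares divide 2 estimates that use the same WT libraries and are given without a test.

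At one end were 18 genes whose level without SCG2 was at or below WT, a set picked after the values were seen. It holds Cd33, the DNA sensor family member Ifi203, the RNA sensors Ifih1 and Tlr7, the pyrin gene Mefv, the resistin family gene Retnlg and the phagosomal metal transporter gene Slc11a1. These were picked from the set, which also holds Mthfsl, St7 and Rab44, among others. Cd33 differed by -0.05 on the log2 scale between LILRB4+/+ SCG2-/- and WT (95% interval -0.49 to 0.38), Tlr7 by -0.11 and Ifih1 by -0.05. Tlr7 stood at 11.4, 18.7 and 18 CPM in WT, 26.7, 37.3 and 31.3 in LILRB4+/+ and 13.3, 18.7 and 12.4 in LILRB4+/+ SCG2-/-. Its LILRB4+/+ libraries were above all others (log2 difference 1.04, SE 0.20, edgeR adjusted p = 0.0376). At the other end were the 18 genes that kept 50% or more, up to 73.3% for the myotubularin family gene Mtmr7, which was picked after its value was seen. Among them Serpinb2 (plasminogen activator inhibitor 2), Slc7a11 (the cystine transporter) and Csf3 (the growth factor G-CSF) kept 69.0%, 68.7% and 56.0%. Serpinb2 stood at 30.6, 33.7 and 25.2 CPM in WT, 86.9, 119 and 133 in LILRB4+/+ and 60.6, 109 and 54.8 in LILRB4+/+ SCG2-/-, and LILRB4+/+ SCG2-/- replicate 2 overlapped the LILRB4+/+ range (log2 difference 1.26, SE 0.22, edgeR adjusted p = 0.0354). Replicate 2 was the highest LILRB4+/+ SCG2-/- library for 59 of the 94 genes.

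**Figure D3:**
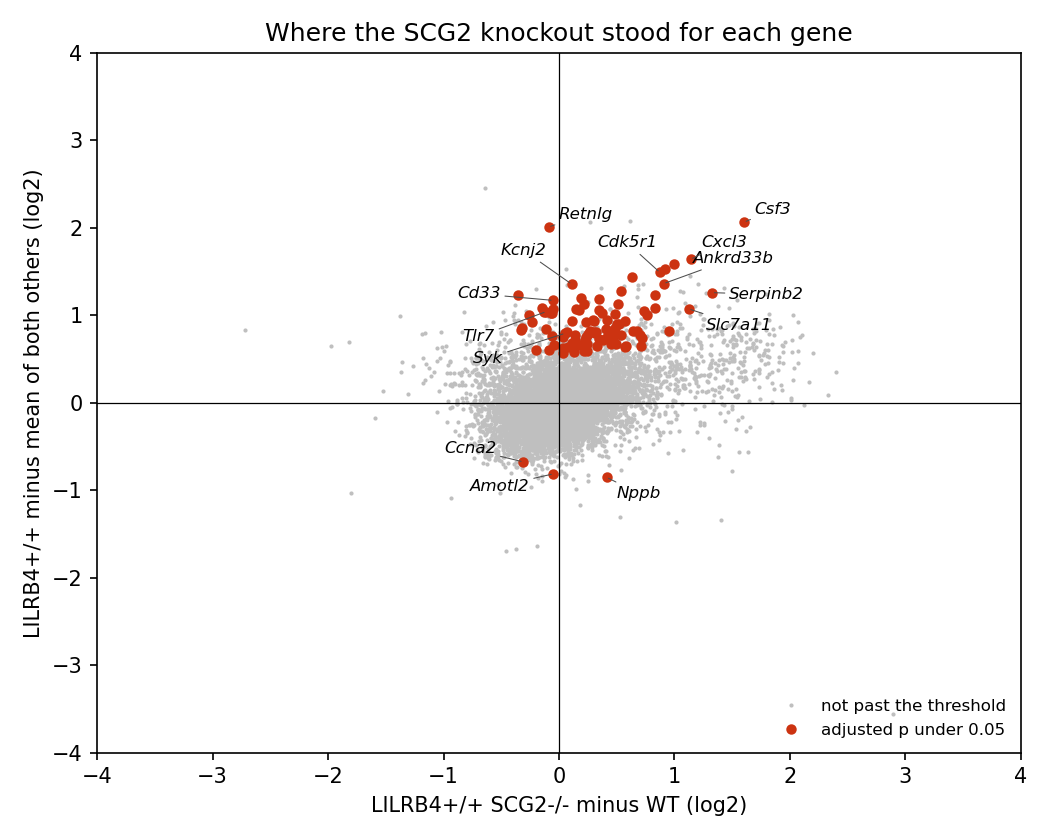
Each dot is a gene: the x axis gives the log2 difference of LILRB4+/+ SCG2-/- from WT and the y axis that of LILRB4+/+ from the mean of both, with the 97 called genes in red. Of the 94 red dots above 0 on the y axis, 76 lie to the right of 0 on the x axis.

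Cytokines and chemokines that recruit or sustain neutrophils were among the higher genes, with log2 differences of up to 2.06. Of 21 measured inflammatory cytokine genes, 4 passed, all higher, with a list median of 0.94, and of 4 measured neutrophil-attracting CXC chemokines Cxcl2 and Cxcl3 passed, with a median of 1.17. Across all genes 0.982% passed and the median was -0.02. The count table admits genes by their level in LILRB4+/+ and holds 4 of the 7 CXC chemokines listed. With recovered counts 2 of 6 passed (median 0.88), and 5 of 26 cytokine genes (median 0.89). There 0.591% of all genes were higher and the median was -0.004. Cxcl2, a ligand of the receptor CXCR2 (chromosome 5, 90903871 to 90905938), stood at 1716, 2605 and 1664 CPM in WT, 7174, 5576 and 7498 in LILRB4+/+ and 2969.9, 4085 and 2209 in LILRB4+/+ SCG2-/-, and its LILRB4+/+ libraries were all above the rest (log2 difference 1.44, SE 0.23, edgeR adjusted p = 0.0318). Cxcl3, a neighbouring chemokine of the same receptor, stood at 330.4, 344 and 215 CPM in WT, 1477, 742 and 1899 in LILRB4+/+ and 695, 882 and 385 in LILRB4+/+ SCG2-/- (log2 difference 1.64, SE 0.31, edgeR adjusted p = 0.0411). LILRB4+/+ replicate 2 lay within the range of the LILRB4+/+ SCG2-/- libraries for Cxcl3. Cxcl1 of the same list stood at 657, 809.8 and 499 CPM in WT, 1622, 1180.0 and 2338 in LILRB4+/+ and 1137, 1674 and 1064 in LILRB4+/+ SCG2-/- and did not pass (log2 difference 0.90, SE 0.24, edgeR adjusted p = 0.0985).

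Csf3 stood at 14, 10.7 and 11.6 CPM in WT, 79, 55.4 and 130.2 in LILRB4+/+ and 31.4, 59.9 and 19 in LILRB4+/+ SCG2-/-, where LILRB4+/+ SCG2-/- replicate 2 lay above LILRB4+/+ replicate 2 (log2 difference 2.06, SE 0.34, edgeR adjusted p = 0.037). Il1a, the alarmin interleukin 1 alpha, stood at 325, 333 and 209.6 CPM in WT, 1051, 933 and 1473 in LILRB4+/+ and 520.1, 808 and 312 in LILRB4+/+ SCG2-/-, with no overlap (log2 difference 1.54, SE 0.27, edgeR adjusted p = 0.037). Il12a, the p35 subunit of IL-12 and IL-35, stood at 2.58, 2.65 and 1.74 CPM in WT, 14, 4.65 and 11.2 in LILRB4+/+ and 3.98, 5.73 and 4.28 in LILRB4+/+ SCG2-/-, with overlap (log2 difference 1.59, SE 0.32, edgeR adjusted p = 0.0482). Its level was low in every library. It is in the count table through the minimum of 100 counts in LILRB4+/+ replicates 1 and 3, so its place among those genes rests on that side. Tnf, among the 47 genes, had 9905 reads in LILRB4+/+ replicate 1 in the count table and 6905 behind the FPKM values, and it passed with both, at a log2 difference of 1.28 (edgeR adjusted p = 0.0351) and 1.15 (edgeR adjusted p = 0.0458). The CC chemokine genes Ccl6 and Ccl9 passed with the count table alone, at 1.24 and 1.13, and stood at 1.02 and 0.78 with recovered counts (edgeR adjusted p = 0.166 and 0.264). The summed neutrophil markers were 293, 477 and 333 CPM in LILRB4+/+ libraries and 182 to 277 in the others, beside these chemokine values, and their part was not tested.

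The promoters of 4 of these inflammatory genes are shown because the genes were higher together and hold short motifs of factors that act in myeloid cells. Each run is the 250 bases before an annotated start (RefSeq, GRCm38.p6), 5′ to 3′ on the gene's strand, with the motif match in capitals: a kappa B motif in Cxcl2 (chr5:90903649-90903898, plus strand) and Cxcl3 (chr5:90785851-90786100, plus strand), an AP-1 motif in Il1a (chr2:129309973-129310222, minus strand) and a C/EBP motif in Ptgs2, the cyclooxygenase 2 gene (chr1:150099781-150100030, plus strand).
Cxcl2: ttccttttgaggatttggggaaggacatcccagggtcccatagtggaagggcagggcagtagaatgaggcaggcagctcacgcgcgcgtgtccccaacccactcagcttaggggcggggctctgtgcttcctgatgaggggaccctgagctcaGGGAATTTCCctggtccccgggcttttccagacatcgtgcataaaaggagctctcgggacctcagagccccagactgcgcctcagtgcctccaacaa
Cxcl3: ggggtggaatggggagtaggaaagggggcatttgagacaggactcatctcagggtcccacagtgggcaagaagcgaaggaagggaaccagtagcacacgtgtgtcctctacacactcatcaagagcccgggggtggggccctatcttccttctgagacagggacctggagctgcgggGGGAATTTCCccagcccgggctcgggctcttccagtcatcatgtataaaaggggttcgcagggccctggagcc
Il1a: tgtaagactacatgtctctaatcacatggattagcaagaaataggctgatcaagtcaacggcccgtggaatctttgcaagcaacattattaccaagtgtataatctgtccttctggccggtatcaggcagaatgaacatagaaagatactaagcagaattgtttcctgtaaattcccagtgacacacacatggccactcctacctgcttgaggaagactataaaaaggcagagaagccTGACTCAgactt
Ptgs2: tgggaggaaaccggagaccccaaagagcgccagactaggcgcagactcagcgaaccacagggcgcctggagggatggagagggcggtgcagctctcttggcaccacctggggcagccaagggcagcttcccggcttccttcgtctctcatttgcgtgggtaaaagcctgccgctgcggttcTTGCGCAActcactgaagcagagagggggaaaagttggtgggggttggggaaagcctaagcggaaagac
The first bases of the matches lie 97, 73, 12 and 69 bases before the start.

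Promoter entries were found for 74 of the 94 higher genes and 7851 of the genes tested, and each window of 250 bases before to 50 after the start was searched on both strands, counting matches of different motifs separately where they overlapped. The kappa B spelling GGGAN directly followed by TTTCC was found in 2 of the 74 matched higher genes (2.70%), the neighbouring Cxcl2 and Cxcl3. Of all 7851 matched genes tested, 46 held it (0.586%). GGGGN directly followed by TTTCC was found in 2 of the 74 (2.70%), Ccl9 and Cpd, and in 40 of the 7851 (0.509%). Among the matched higher genes and all matched genes tested, the AP-1 motif TGANTCA was found in 14.9% and 6.32%. For the C/EBP motif TTGCNNAA the shares were 20.3% and 10%. The STAT motif TTCCNGGAA was found in 1.35% and 1.52%, the PU.1 motif GAGGAAGT in 1.35% and 4.05%, and the CHR motif TTTGAA in 13.5% and 14%. A gene can have several windows, and there were 113 for the 74 higher genes and 10068 for the 7851 tested. Per window the AP-1 shares were 12.4% and 5.23%, and the C/EBP shares 14.2% and 8.36%. The motifs were picked with the called genes known, and the printed promoters after the shares were seen, so these shares are descriptions.

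Il6, named in the series title, was highest on average in LILRB4+/+ libraries, but its call depends on the source of the counts. With the count table it stood at 52.1, 67.9 and 50.3 CPM in WT, 192, 140.0 and 172 in LILRB4+/+ and 121, 172 and 81.5 in LILRB4+/+ SCG2-/- and missed the threshold (log2 difference 1.0, SE 0.21, edgeR adjusted p = 0.0506). With recovered counts LILRB4+/+ replicate 3 stood at 243 CPM and the gene passed, at a log2 difference of 1.23 (edgeR adjusted p = 0.0444). LILRB4+/+ SCG2-/- replicate 2 lay within the LILRB4+/+ range in both, and LILRB4+/+ SCG2-/- stood 1.13 above WT on the log2 scale (unadjusted p = 0.000814 by edgeR).

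Of 23 measured genes of the IL-6 family and JAK-STAT3 list, 1 passed, Lifr, which encodes the receptor of leukaemia inhibitory factor and pairs with gp130. It stood at 12.8, 16.8 and 16.8 CPM in WT, 30.4, 33.6 and 26.2 in LILRB4+/+ and 21.9, 19.2 and 16.6 in LILRB4+/+ SCG2-/- (log2 difference 0.80, SE 0.15, edgeR adjusted p = 0.0375). Stat3 had a log2 difference of 0.54 by the count table and 0.28 by recovered counts, and passed with neither (edgeR adjusted p = 0.233 and 0.684). Its values in LILRB4+/+ replicate 2 and LILRB4+/+ SCG2-/- replicate 2 are exchanged between the sources. Socs3, the feedback inhibitor of this pathway, stood at 1172, 1134 and 964 CPM in WT, 2709, 1686 and 2748 in LILRB4+/+ and 1877, 1867 and 1149.6 in LILRB4+/+ SCG2-/- and did not pass (log2 difference 0.84, SE 0.21, edgeR adjusted p = 0.0825). The receptor genes Il6ra and Il6st stood at 0.27 and -0.01. None of 24 measured STAT3 target genes passed, and their median was 0.35. Of all genes 0.982% passed and the median was -0.02.

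**Figure D4:**
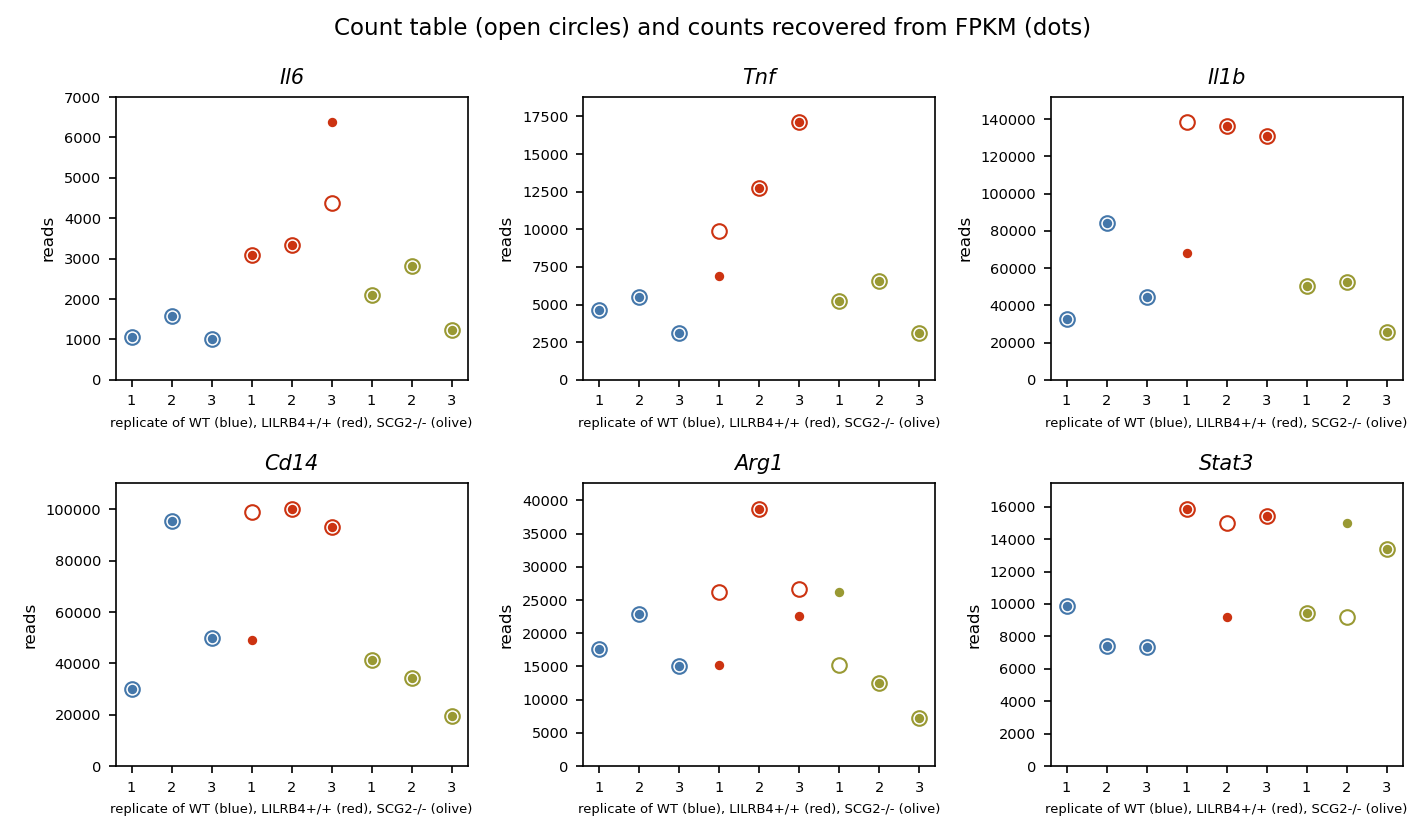
Reads per library for 6 genes that differ between the 2 deposited sources, with open circles for the count table and dots for the counts recovered from FPKM (blue WT, red LILRB4+/+, olive LILRB4+/+ SCG2-/-; x axis, replicate). A circle without a dot inside marks a difference, as for Il1b in LILRB4+/+ replicate 1 (138311 against 68311 reads).

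Most receptors and kinases of innate signalling stood above 0 in the difference of LILRB4+/+ from the others, with single members past the threshold. All 20 listed genes of the inhibitory ITIM receptor list stood above 0 with recovered counts (median 0.54), as did the 18 in the count table (median 0.53), where 47.7% of all genes did. Cd33 was the 1 that passed, where 0.982% of all genes did, although mouse CD33 lacks the canonical ITIM of the human protein. All 20 listed activating ITAM receptor and kinase genes stood above 0 with recovered counts (median 0.50), as did the 19 in the count table (median 0.47), and Syk, the kinase that docks on phosphorylated ITAMs, passed. The summed ITAM list overlapped, at 4900, 6614 and 4943 CPM in LILRB4+/+ and 2580 to 5447 in the others. The summed ITIM list did not, at 4784 to 6422 against 2602 to 3961 CPM. For LILRB4+/+ SCG2-/- against WT the list medians were -0.48 (ITAM) and -0.41 (ITIM). Syk stood at 334, 408 and 424 CPM in WT, 764, 667 and 628 in LILRB4+/+ and 402, 431 and 375 in LILRB4+/+ SCG2-/-, with WT and LILRB4+/+ SCG2-/- in one range (log2 difference 0.79, SE 0.13, edgeR adjusted p = 0.0354). Lilrb4a and Lilr4b, near copies of each other and the mouse genes of the LILRB4 family, had log2 differences of 0.76 and 0.82 and did not pass (edgeR adjusted p = 0.228 and 0.156). Lilrb4a stood at 767, 256 and 397 CPM in WT, 1459.9, 800.0 and 869 in LILRB4+/+ and 723, 796 and 885 in LILRB4+/+ SCG2-/-. Only replicate 1 of LILRB4+/+ lay above all 6 others for it.

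In the Toll-like receptor and CD14 pathway list 3 of 20 measured genes passed, with a median of 0.63, against 0.982% and -0.02 for all genes. They were Tlr7 and the kinase genes Irak2 and Irak3, which encode an activator and a brake of Toll-like receptor signalling. With recovered counts 3 of 22 genes of this list passed, with a median of 0.54, where 0.591% of all genes were higher. The summed list overlapped, at 5088, 7571 and 5464 CPM in LILRB4+/+ and 2502 to 5985 in the others. Its median for LILRB4+/+ SCG2-/- against WT was -0.25. Irak2 stood at 161, 194 and 182 CPM in WT, 369, 281 and 274 in LILRB4+/+ and 199.8, 199 and 192 in LILRB4+/+ SCG2-/- (log2 difference 0.71, SE 0.13, edgeR adjusted p = 0.037). Irak3 stood at 23, 28.6 and 20.2 CPM in WT, 46.9, 39.7 and 56.2 in LILRB4+/+ and 24.9, 32.8 and 20.010 in LILRB4+/+ SCG2-/- (log2 difference 0.93, SE 0.18, edgeR adjusted p = 0.0411). In both genes the LILRB4+/+ libraries were above all others. Il17ra and the chemokine-binding receptor gene Ccrl2 passed with the count table, at 0.67 and 1.07, and not with recovered counts, at 0.55 and 0.89 (edgeR adjusted p = 0.0885 and 0.0589). None of 24 NF-kB subunit and inhibitor genes passed, though 22 stood above 0 (median 0.44). Dusp16, a phosphatase of JNK and p38 kinases, was higher by 0.67 on the log2 scale (77.5, 76.6 and 85.1 CPM in WT, 155, 144 and 152 in LILRB4+/+ and 118, 121 and 98 in LILRB4+/+ SCG2-/-, edgeR adjusted p = 0.0354). Ifih1, which encodes the RNA sensor MDA5, was the 1 of 21 type I interferon-stimulated genes that passed (1.07 on the log2 scale, edgeR adjusted p = 0.0386), in a list with a median of 0.00. The summed monocyte antigens were 11568 CPM in LILRB4+/+ replicate 2 and 3783 to 6538 in the other 8 libraries. Fn1 alone, a member of that list, stood at 7613 CPM in that replicate and 2313 to 3470 in the other 8. The part of these antigens in the receptor values was not tested.

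Among suppressive effectors of MDSCs 3 of 21 measured genes passed, all higher, with a median of 0.67, where 0.982% of all genes passed and their median was -0.02. Of the 21, 6 are among the 47 genes that differ between the sources. With recovered counts 3 of 23 passed, with a median of 0.58, where 0.591% of all genes were higher. Ptgs2, which encodes cyclooxygenase 2, stood at 1538, 1853 and 1976 CPM in WT, 5665, 4154 and 5323 in LILRB4+/+ and 2828, 4104 and 2635 in LILRB4+/+ SCG2-/-. Its LILRB4+/+ libraries were the highest 3, though LILRB4+/+ replicate 2 exceeded LILRB4+/+ SCG2-/- replicate 2 by little (log2 difference 1.08, SE 0.19, edgeR adjusted p = 0.037). Slc7a11, which imports cystine, stood at 161, 189 and 222 CPM in WT, 768, 471 and 535 in LILRB4+/+ and 306, 489.8 and 449 in LILRB4+/+ SCG2-/- and overlapped (log2 difference 1.07, SE 0.20, edgeR adjusted p = 0.037). Arg2, the mitochondrial arginase, stood at 31.3, 49.7 and 34.6 CPM in WT, 80.8, 79.3 and 86 in LILRB4+/+ and 51.1, 56.1 and 35.1 in LILRB4+/+ SCG2-/-, without overlap (log2 difference 0.94, SE 0.17, edgeR adjusted p = 0.0375). Arg1, the arginase of suppressor cells, did not pass with either source, at 0.87 by the count table and 0.40 by recovered counts (edgeR adjusted p = 0.0791 and 0.636). Nos2 had differences of 0.31 and 0.21 and did not pass (edgeR adjusted p = 0.442 and 0.639). Ptger2, a receptor of prostaglandin E2, was higher together with Ptgs2 in the prostaglandin and leukotriene list (2 of 14 genes, median 0.21), by 1.05 on the log2 scale (edgeR adjusted p = 0.0411).

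Of 18 neutrophil markers listed, 13 were measured with recovered counts, where Retnlg and Hdc passed (edgeR adjusted p = 0.0439 and 0.0333) and the median was 0.99. Of all genes with recovered counts 0.591% were higher and 0.00635% lower, and their median was -0.004. The count table holds 8 of them, chosen through its minimum in LILRB4+/+ libraries, and 4 of the 8 differ between the sources, so their signs are not counted here. Retnlg stood at 12.9, 20.8 and 9.22 CPM in WT, 33.4, 90.7 and 43.4 in LILRB4+/+ and 16.4, 11.3 and 12.6 in LILRB4+/+ SCG2-/-, highest in LILRB4+/+ replicate 2 (log2 difference 2.01, SE 0.32, edgeR adjusted p = 0.0354). Hdc, which makes histamine and is also a mast cell marker, stood at 25.7, 31.9 and 21.9 CPM in WT, 65.1, 55.6 and 69.8 in LILRB4+/+ and 31.1, 46.9 and 33.2 in LILRB4+/+ SCG2-/- (log2 difference 1.02, SE 0.16, edgeR adjusted p = 0.0354). The mast cell gene Kit stood at 18.8, 6.11 and 14.8 CPM in WT, 56.5, 6.03 and 33.3 in LILRB4+/+ and 37.8, 65.5 and 57.9 in LILRB4+/+ SCG2-/-, with overlap, and did not pass (log2 difference 0.26, SE 0.60, edgeR adjusted p = 0.86). S100a8, a calprotectin subunit and one of the 47 genes, had 115 reads in LILRB4+/+ replicate 1 in the count table and 5 behind the FPKM values. It had a log2 difference of 2.46 by the count table and 1.99 by recovered counts, and did not pass (edgeR adjusted p = 0.0645 and 0.365). Beside these values the neutrophil markers Csf3r (26.4 to 61.5 CPM) and Il1r2 (70.5 to 130.2 CPM) were present in every library, and Ly6g and Elane were at or near 0. Several markers were, like Retnlg, highest in LILRB4+/+ replicate 2. With recovered counts the LILRB4+/+ libraries stood at 3.04, 27.1 and 7.16 CPM for G0s2 and 9.23, 22.5 and 8.16 for Padi4. S100a9 stood at 0.229, 8.5 and 0.926. In LILRB4+/+ replicate 1 these genes lay within or below the WT and LILRB4+/+ SCG2-/- range. Lcn2, like Hdc, was higher in another LILRB4+/+ library. The median of 0.99 therefore does not describe an even rise in every LILRB4+/+ library.

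On the lower side 3 genes passed the adjusted threshold, each with every LILRB4+/+ library below the 6 others, as for 4.97% of all genes tested. The same contrast called these 3, so this too is a description. Without adjustment the lower side was not the smaller one, with 919 genes against 889. Nppb, which encodes B-type natriuretic peptide (chromosome 4, 147985788 to 147987205), stood at 30.1, 41.3 and 29.995 CPM in WT, 20.7, 20.5 and 23.6 in LILRB4+/+ and 47.1, 43 and 44.8 in LILRB4+/+ SCG2-/- (log2 difference -0.85, SE 0.14, edgeR adjusted p = 0.0354). Amotl2, an angiomotin family gene of the Hippo pathway (chromosome 9, 102716672 to 102733418), stood at 114, 81 and 99.5 CPM in WT, 48.9, 61.1 and 54.9 in LILRB4+/+ and 86.3, 82.1 and 116 in LILRB4+/+ SCG2-/- (log2 difference -0.81, SE 0.16, edgeR adjusted p = 0.0446). Ccna2, the S phase and mitotic cyclin A2 (chromosome 3, 36564865 to 36572150), stood at 84, 104 and 102 CPM in WT, 46.4, 59.5 and 56.8 in LILRB4+/+ and 81.2, 70.3 and 81.9 in LILRB4+/+ SCG2-/- (log2 difference -0.68, SE 0.13, edgeR adjusted p = 0.0412). With recovered counts of all genes Nppb passed (edgeR adjusted p = 0.0439), while Amotl2 and Ccna2, whose counts are the same in both sources, did not (edgeR adjusted p = 0.0544 and 0.0657). Cyr61, a secreted matricellular gene known as a target of the Hippo pathway, stood at 659.6, 369 and 366 CPM in WT, 225, 228 and 288 in LILRB4+/+ and 499.5, 429 and 620.5 in LILRB4+/+ SCG2-/- and did not pass (log2 difference -0.99, SE 0.22, edgeR adjusted p = 0.0607). Summed fibroblast markers were 3822 to 5084 CPM in LILRB4+/+ libraries and 4950 to 6359 in the others, and their part in the lower values was not tested.

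Nearly all listed mitosis, spindle and DNA replication genes had differences below 0, with 1 past the threshold. All 28 listed mitosis and spindle genes stood below 0 (median -0.54) where 47.7% of all genes stood above 0, and Ccna2 was the 1 that passed. The list does not hold every gene of mitosis, and Ckap2l, outside it, was among the 94 higher genes. Of 24 measured DNA replication and S phase genes 23 stood below 0 (median -0.41) and 0 passed. The summed mitosis and spindle genes were 1311, 1611 and 1472 CPM in LILRB4+/+ libraries, 1834, 2079 and 2513 in WT and 1776, 1779 and 2015 in LILRB4+/+ SCG2-/-, so the LILRB4+/+ libraries lay below all 6 others while the other genotypes overlapped each other. The kinase gene Bub1 had a log2 difference of -0.63, the spindle gene Prc1 -0.62 and the helicase subunit gene Mcm5 -0.60 (edgeR adjusted p = 0.0585, 0.0629 and 0.0593). The cell cycle inhibitor gene Cdkn2c stood at -0.63 (edgeR adjusted p = 0.0572). In the cholesterol and fatty acid synthesis list 24 of 26 genes stood below 0 (median -0.27) and 0 passed, with Idi1 at -0.68 and Lss at -0.57. Heat shock and dissociation genes had a median of -0.56 with 0 of 17 past the threshold, and Hspa1b ranged from 303 to 911 CPM in LILRB4+/+ and from 865 to 4137 in the others.

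**Figure D5:**
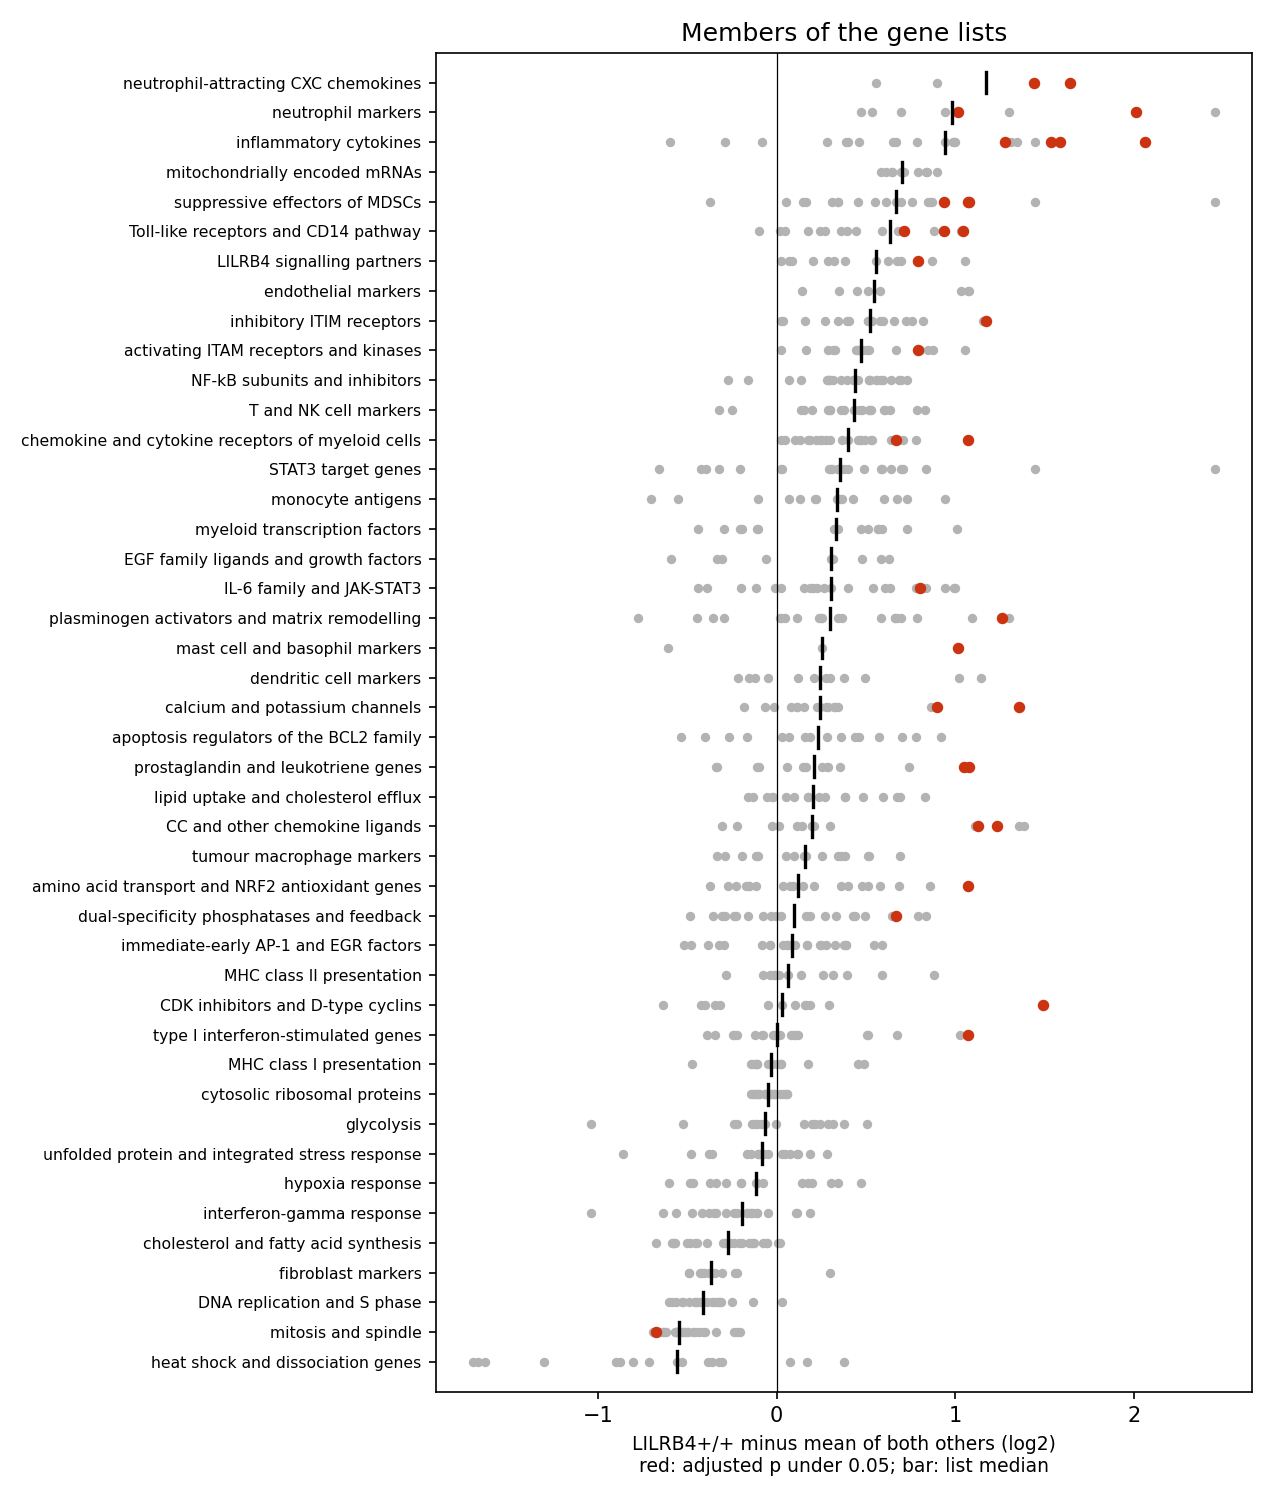
Log2 difference of LILRB4+/+ from the mean of both other genotypes (x axis) for each measured member (dot) of the gene lists with 3 or more members (y axis), with a bar at the list median and red for an adjusted p under 0.05. The medians run from 1.17 for neutrophil-attracting CXC chemokines to -0.56 for heat shock and dissociation genes. The former covers the 4 of 7 listed genes in the count table, and was 0.88 for 6 with recovered counts.

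Several other lists had medians near that of all genes (-0.02). Cytosolic ribosomal proteins had a median of -0.05, MHC class I genes -0.03, glycolysis -0.06, hypoxia response -0.11, the unfolded protein response -0.08, MHC class II 0.06 and immediate-early AP-1 and EGR factors 0.09, with 0 members past the threshold in each. Interferon-gamma response genes had a median of -0.19, with 19 of 22 below 0 and 0 past the threshold. Away from that median, the 10 measured mitochondrially encoded mRNAs all stood above 0 (median 0.70) and 0 passed, with mt-Nd6 nearest (0.71, edgeR adjusted p = 0.0653). T and NK cell markers had a median of 0.43 here and of 1.41 for LILRB4+/+ SCG2-/- against WT, with 0 of 21 past the threshold.

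Of the 5866 genes tested that the count table leaves out, 12 were higher (0.205%) and 0 lower (0%) with recovered counts, and limma on log2(FPKM + 1) called 1 of 2744 (0.0364%). Dach1, a transcriptional repressor gene, had 1.19, 0.714 and 0.682 CPM in WT, 4.68, 6.79 and 3.51 in LILRB4+/+ and 1.51, 1.17 and 2.06 in LILRB4+/+ SCG2-/- libraries (log2 difference 2.09, SE 0.32, edgeR adjusted p = 0.0305). The eosinophil-type ribonuclease gene Ear6 and the formyl peptide receptor gene Fpr1 had recovered log2 differences of 2.43 and 1.44. The 1 gene that limma called, Ighv14-4, passed the filter on low FPKM only through the LILRB4+/+ libraries, so its values are a description. This immunoglobulin variable segment, of a family whose members share sequence, had 33, 21 and 21 reads in LILRB4+/+ libraries and 0 in the 6 others. Set against 3 counts over the 6 libraries, the level of Ighv14-4 was at least 40.1-fold higher, a bound that covers counting error only.

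The interleukin 1 locus on chromosome 2 gave several of the calls. Il1bos, annotated antisense to Il1b (129369897 to 129375748), had 5.64, 4.08 and 4.29 CPM in WT, 18.9, 13.7 and 14.2 in LILRB4+/+ and 8.30, 11 and 5.73 in LILRB4+/+ SCG2-/- libraries (log2 difference 1.32, SE 0.22, edgeR adjusted p = 0.0366). The noncoding transcript Gm14023 (129297370 to 129307826), which overlaps Il1a (129299610 to 129309972), was also among the 12, and the neighbouring Ckap2l (129268210 to 129297212) was among the 94. Il1bos and Il1b, and Gm14023 and Il1a, share genomic sequence, and the strand setting of the counting is not given in the sources used here, so reads of overlapping genes cannot be told apart. Il1b itself is one of the 47 genes and was not called with the count table. The calls of Il1bos and Gm14023 are those of edgeR on recovered counts, and limma did not call them. Gm14023 and Ckap2l were picked for their position after their values were seen.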

How the data were processed

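The labels describe directional libraries made from poly-A RNA of M-MDSCs, 3 per genotype. The authors deposited raw counts per gene and FPKM values. The submitters' processing notes name HISAT2 (2.0.5) and featureCounts (1.5.0-p3). Build, annotation release and strand setting are not given in the sources, and coordinates are those of GRCm38. Multiplying FPKM by gene length and by a constant for each library returned whole reads (tolerance 0.01) at 100% of values, called recovered counts.

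Counts were tested with edgeR 4.0.16 in R 4.3.3 (quasi-likelihood, TMM, 3 group means, minimum count of 10, 6 residual degrees of freedom), on the contrast of LILRB4+/+ with the mean of the other genotypes. DESeq2 1.42.0 and limma 3.58.1 (pseudocount 1, mean FPKM of at least 1) were alternatives, limma being the main test for genes outside the count table. The fits were tested on simulated data. Low totals limit precision: 3 counts equal 0.110 to 0.207 CPM.

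Genes were named by rule: the 12 smallest p-values per side (filled to 6 where fewer passed), up to 6 outside the count table, list members that passed or the 3 smallest, genes of the title's pathway, genes whose call differed between tables, and 6 per side by the larger p. Members and lists were chosen with earlier results of these data known.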

Additional observations from a re-analysis of the deposited data

How the results depend on the processing

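Against 94 higher and 3 lower genes, DESeq2 called 399 and 139, the T and NK cell covariate gave 373 and 128, the mitochondrial mRNA covariate 0 and 0, and 2 groups with the 6 others as one 1 and 0; both covariates were added after seeing the data. Recovered counts of all genes gave 93 and 1. limma on log2(FPKM + 1) gave 2 and 0, with a pseudocount of 0.1 it gave 0 and 0, and without a filter on low FPKM 0 and 0. DESeq2 called 57 genes against both genotypes and 11 of the called genes between LILRB4+/+ SCG2-/- and WT, where edgeR called 0 and 0. Leaving out 1 library gave 0 to 109 higher and 0 to 2 lower genes, 416 to 851 genes with every LILRB4+/+ library above the others and 442 to 896 below.

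For genes outside the count table, limma's 1 higher gene became 0 with a pseudocount of 0.1, 0 without a filter and 12 with recovered counts, and leaving out 1 library gave 0 to 12 higher and 0 to 1 lower. Whether the replicate numbers pair the samples was not settled. Correlations of deviations between same-numbered libraries ran from -0.54 to 0.66. Deviations from the mean of so small a group are tied to each other, and differently numbered libraries give no reference here. These correlations therefore cannot show or exclude pairing. A fit with the replicate block gave 2 higher and 0 lower genes, and 0 outside the count table. For the 39 called genes with full statistics, all 931 alternative values kept their direction and 449 passed the threshold. Medians of 16 lists had the other sign under at least 1 alternative (39 of 846 values). The causes were not tested.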
